A study of Mus musculus with 2 samples.

Results

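In mouse neural tube, a set of 10 annotated miRNA genes held nearly all of their small RNA reads on the strand opposite to their annotation. These 10 genes, out of 1973 in the count tables, were chosen from the measured values: their opposite-strand counts were far above their same-strand counts, so the strand split itself is given here as a description and not as a finding. They are Gm24321, Gm25927, Gm25252, Gm24083, Gm25301, Gm25750, Mir299b, Mir142b, Mir497b and Gm25641. In the gene annotation GENCODE M21 (genome build GRCm38, also called mm10) each of them is overlapped on the other strand by a known miRNA gene, in that order Mir409, Mirlet7e, Mir376a, Mir191, Mir378a, Mir380, Mir299a, Mir142, Mir497 and Mir9-1. The reads lie on the strand of these known miRNAs. The level of each known miRNA was therefore taken from the opposite-strand column of the gene that overlaps it, divided by the sum of same-strand gene counts in that library.

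The tissue was neural tube, the embryonic tissue that forms brain and spinal cord, from B6NCrl embryos at day 13.5. Both libraries came from pooled male and female embryos without any treatment, so there was 1 condition and no test between conditions could be made. The labels give 2 biological replicates from separate biosamples, which share 1 donor entry. Same-strand counts on genes came to 7019469 in replicate 1 and 5738209 in replicate 2. Of 9 neuronal miRNA genes used as tissue markers, 7 had at least 10 counts in each library, together 6899.5 and 6831 CPM (the count divided by the same-strand total, times 1000000). Most of that sum was Mir137 (5025 and 5168 CPM), while Mir124a-1, Mir124a-2 and Mir124a-3, the genes of the neuronal miR-124, had mean levels of 1.69, 3.52 and 0.071 CPM. Multimapping reads, 28.5% and 31.0% of all reads, enter no gene count. A low level of a gene therefore does not show that its mature miRNA was rare. Which marker genes lost reads in this way was not tested. The glial markers (3 of 3 detected, 2765 and 2690.04 CPM summed) and the endothelial marker Mir126a (17134 and 16019 CPM) were present too. Of other cell types, the erythroid list (3 of 3 detected) summed to 76.1 and 48.3 CPM, and the hepatic marker Mir122 stood at 118 and 30.7 CPM. Of 5 skeletal muscle genes with a row only Mir206 passed the minimum, and the 5 summed to 118.8 and 378 CPM. Mir133a-1 and Mir133a-2 stood at 0, to which the limit from multimapping reads applies as well. Mir1a-2 was not analysed here. The leukocyte list, with 5 of 5 genes detected, summed to 5271 and 3223 CPM, almost all of it from Mir342.

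A miRNA gene is transcribed into a hairpin precursor, which the enzymes Drosha and Dicer cut into a short duplex. One strand of the duplex, the 5p or the 3p arm, is loaded into an Argonaute protein and pairs with target mRNAs through its seed, bases 2 to 8. The reverse complement of a hairpin can often fold into a hairpin as well, and for that reason gene prediction can place a miRNA on either strand of one locus. In read counts, the transcribed strand can be seen only where the reads are stranded. The miRNAs found here have well-known roles: let-7e belongs to the let-7 family of developmental timing, miR-9 acts in neural progenitors, miR-142 is typical of blood cells, and miR-409, miR-376a, miR-380 and miR-299a come from the imprinted Dlk1-Dio3 region, expressed from the maternal chromosome.

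The antisense arrangement is shown by the pair with the most counts. Gm24321 lies on the minus strand at chr12:109743158-109743237 and Mir409 on the plus strand at chr12:109743158-109743236. In the sequences, written 5′ to 3′, the capitals in Mir409 mark the mature arm miR-409-3p, and those in Gm24321 mark the stretch that is its reverse complement (Mir409 from RefSeq, Gm24321 from the M21 transcripts, both on GRCm38).
Mir409: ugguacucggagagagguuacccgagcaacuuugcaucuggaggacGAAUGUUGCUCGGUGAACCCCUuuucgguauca
Gm24321: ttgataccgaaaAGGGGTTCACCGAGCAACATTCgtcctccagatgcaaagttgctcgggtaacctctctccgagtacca
The whole reverse complement of the known hairpin was contained in the overlapping gene for 9 of the 10 pairs. The exception was Mir299b, which at 49 bases is shorter than the 63 bases of Mir299a.

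Some of the mature arms that these loci can give are shown because the counts are per gene and do not tell the arms apart. The arms let-7a-5p, miR-376b-3p and miR-195a-5p come from other genes and are listed for comparison. The RefSeq (GRCm38.p6) entries used here, a filtered set described with the processing, covered 9 of the 10 known miRNAs and not Mir378a. Capitals mark the seed.
miR-409-5p: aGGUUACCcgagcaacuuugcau
miR-409-3p: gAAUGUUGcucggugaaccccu
let-7e-5p: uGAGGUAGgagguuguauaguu
let-7a-5p: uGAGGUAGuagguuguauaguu
miR-376a-3p: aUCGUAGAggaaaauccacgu
miR-376b-3p: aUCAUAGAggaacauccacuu
miR-191-5p: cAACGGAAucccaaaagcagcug
miR-380-3p: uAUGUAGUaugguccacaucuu
miR-142a-5p: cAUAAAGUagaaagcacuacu
miR-142a-3p: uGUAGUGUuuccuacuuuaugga
miR-497a-5p: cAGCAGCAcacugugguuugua
miR-195a-5p: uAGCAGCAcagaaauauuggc
miR-9-5p: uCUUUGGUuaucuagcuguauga
Of these, let-7e-5p shared its seed with arms of 13 other RefSeq genes (for 1 of them, Mirlet7a-2, found in the hairpin only), miR-497a-5p with arms of 10, and both arms of Mir9-1 with Mir9-2 and Mir9-3. No seed of miR-409, miR-376a, miR-191, miR-380, miR-299a or miR-142a was found on an arm of another locus in this table. The arm let-7e-5p differs from let-7a-5p at 1 of 22 bases and from let-7i-5p at 5. The arm miR-376a-3p differs from miR-376b-3p at 3 of 21 bases. Both arms of Mir9-1 are identical to those of 2 other genes, so a read of exactly an arm matches several places, and multimapping reads form a class outside the gene counts. No identical arm was found elsewhere in this set for the other 8 miRNAs with an entry.

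On the strand annotated for the gene itself, 7 of the 10 genes had 0 counts in both libraries, against 311 to 55630 on the other strand. Gm24083 had 0 and 2 same-strand counts, Mir497b 1 and 0, and Mir299b 4 and 5. These are 10 of the 12 genes with more opposite-strand than same-strand counts, which made up 2.57% of the 467 genes with at least 10 counts, a background printed for scale only since the choice of genes used these counts. The gene just inside the choice was Gm25641, with 311 opposite-strand and 0 same-strand counts. The genes just outside were Gm24111 with 423 and 1, and Mir124a-3 with 15 and 1. The 10 genes held 99.5% ± 0.030 (SD, n = 2) of all opposite-strand gene counts, with 99508 of 100058 counts in replicate 1 (Wilson 95% interval 99.40% to 99.49%) and 85399 of 85834 in replicate 2 (99.44% to 99.54%). A count of 0 allows 3 counts, which for Gm24321 is a same-strand share of up to 0.00539% and for Gm25641, with far fewer reads, of up to 0.965%. Intervals and limits cover counting error only.

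**Figure D1:**
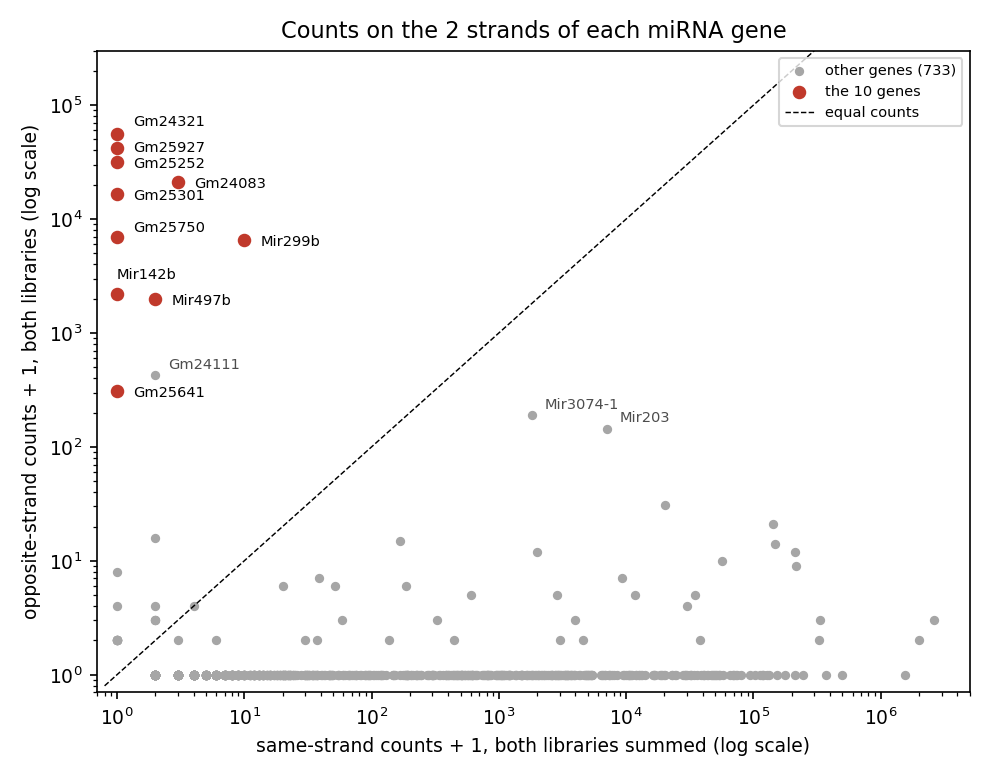
Same-strand counts plus 1 (x axis, log scale) against opposite-strand counts plus 1 (y axis, log scale) for each miRNA gene with any count, summed over both libraries, where the dashed line marks equal counts. The 10 genes (red) stand at the upper left with 0 to 9 same-strand counts, and the other genes (grey) lie below 100 opposite-strand counts, except Gm24111 at 423, Mir3074-1 at 190 and Mir203 at 144.

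The unstranded column does not use strand. For each of the 10 genes the unstranded count equalled the sum of its same-strand and opposite-strand counts (32431 and 23199 for Gm24321), and the class of ambiguous reads held 0 in both libraries. The unstranded count thus assigned every one of these reads to the antisense gene alone. The annotation used for names holds 32 pairs of miRNA genes that overlap on opposite strands. In all 32 pairs exactly 1 gene had a row in the tables used here, and the other was not analysed as a gene of its own. The identifiers of all 10 known partners carry numbers above the highest in the tables. Among the 22 pairs outside the 10, 1 had more opposite-strand counts (Gm24111, overlapped by Mirlet7f-1). In Mir126a (212191 same-strand and 11 opposite-strand counts), Mir30e (151978 and 0) and Mir219a-2 (30000.0 and 3) the row with counts was the known miRNA itself.

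Stranded assignment was sharp across the libraries. Of 200 other genes with at least 1000 same-strand counts, 178 had 0 opposite-strand counts, and the 95th percentile of the opposite-strand share was 0.0162%. The minor-strand share of Mir299b, 0.138% (9 same-strand beside 6523 opposite-strand counts), lay above that percentile. So did that of Mir497b, 0.0498%, which is 1 count, while that of Gm24083, 0.00944%, lay below it. The longest run of bases that a known hairpin shared with its own reverse complement was 21 in Mir299a and 6 to 12 in the other 9, with 9 in Mir497. The run common to both Mir299 hairpins is in capitals (RefSeq, Mir299a on the plus strand at chr12:109710638-109710700, Mir299b on the minus strand at chr12:109710645-109710693).
Mir299a: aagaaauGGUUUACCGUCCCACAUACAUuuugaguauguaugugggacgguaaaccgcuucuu
Mir299b: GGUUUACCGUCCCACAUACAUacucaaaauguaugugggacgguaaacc
This run is the whole of the annotated arm miR-299b-5p. A read of exactly that run matches both strands of the locus, at different positions. Multimapping reads enter no gene count, so such a read would add neither to Mir299a nor to Mir299b. The source of the 9 same-strand counts of Mir299b was not tested.

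The RefSeq entries used here list mature arms on the antisense strand itself for 4 of the 10 genes, so products of that strand have been catalogued for them. They are shown with the seed in capitals.
miR-299b-3p: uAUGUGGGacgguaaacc
miR-142b: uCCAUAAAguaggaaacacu
miR-497b: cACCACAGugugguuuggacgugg
miR-9b-5p: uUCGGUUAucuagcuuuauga
In these libraries the genes of miR-142b and miR-9b had 0 same-strand counts and that of miR-497b had 1. The limit that 0 counts allow was a share of 0.135% of the locus for Mir142b. For miR-9b-5p, RefSeq holds the identical sequence in 2 other genes, so a read of exactly that arm also matches more than 1 place. The seed of miR-497b is also that of an arm of Mir140, a cartilage miRNA, which stood at 2699 and 3322 CPM.

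The strand that carries the reads was not always the strand whose hairpin is predicted to be more stable. With RNAfold, 7 of the 10 known hairpins had a lower minimum free energy than their own reverse complement. Of 992 other RefSeq hairpins, with chromosome 18 left out, 79.4% did, so the share of the 10 was close to that background. The difference was largest for Mir9-1 (-41.0 against -33.7 kcal/mol) and Mir380 (-27.9 against -20.7 kcal/mol). It went the other way in Mir497 (-41.5 against -47.1 kcal/mol) and Mir376a (-16.6 against -19.1 kcal/mol), and was small in Mir299a (-42.1 against -42.3) and Mir142 (-26.9 against -26.8 kcal/mol).

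Read on the strand of the known miRNA, the summed counts of the 10 genes equalled 1.42% of the same-strand total in replicate 1 (95% interval 1.41% to 1.43%) and 1.49% in replicate 2 (1.478% to 1.498%), a mean of 1.45% ± 0.050 (SD, n = 2). These counts are not part of that total, so the interval is the Wilson interval of their share in the sum of both, expressed as a ratio. A read covers about a whole mature miRNA, so counts were not divided by gene length, and comparisons between genes are of CPM. Differences in ligation efficiency between miRNAs were not tested. In a whole tissue, fewer cells of a type and less RNA per cell cannot be told apart. The levels spanned from 4332 CPM for miR-409 to 24.2 CPM for miR-9 from the Mir9-1 locus.

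Mir409 was the highest, with 32431 counts in replicate 1 and 23199 in replicate 2, or 4620 and 4043 CPM (mean 4332 ± 408, SD, n = 2). It would rank 33rd of the 1973 genes, between Mirlet7b (4445 ± 50.2 CPM) and Mir30d (4248 ± 202 CPM). Mirlet7e followed with 22794 and 18979 counts, or 3247 and 3307 CPM (3277 ± 42.6), and rank 46. Mir376a had 16007 and 15533 counts, or 2280.4 and 2707 CPM (2494 ± 302), and rank 58. These levels fell in the same order in both libraries, each step larger than the SD of either gene.

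Mir191, a broadly expressed miRNA, had 11396 and 9787 counts, or 1623 and 1706 CPM (1665 ± 58.1), and rank 69. Mir378a, which lies in an intron of Ppargc1b, a coactivator of oxidative metabolism, had 7514 and 9193 counts, or 1070.5 and 1602 CPM (1336 ± 376), and rank 76. Mir191 was above Mir378a in both libraries, but the difference of their means, 328 CPM, was smaller than the SD of Mir378a. The level of Mir378a rested on the library more than that of any other of the 10 genes.

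Mir380, whose 5p arm has been reported to repress p53, had 3542 and 3475 counts, or 505 and 606 CPM (555 ± 71.4). Mir299a, its neighbour, had 3325 and 3198 counts, or 474 and 557 CPM (515.5 ± 59.1). Mir380 was above Mir299a in both libraries, but the difference of their means, 39.6 CPM, was smaller than the SD of either. Their ranks were 106 and 110, beside the neuronal Mir153 (508 ± 0.78 CPM) and Mir300 (541 ± 30.2 CPM).

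Mir142 had 1233 and 984 counts, or 176 and 171 CPM (174 ± 2.95), and Mir497 had 1086 and 920 counts, or 155 and 160.3 CPM (158 ± 3.97). The pair was close in level, with a ratio of means of 1.10, but the order held in both libraries and the difference of 16.05 CPM exceeded both SDs. Mir9-1 was the lowest with 180 and 131 counts, or 25.6 and 22.8 CPM (24.2 ± 1.99), 6.50-fold below Mir497 and at rank 270. Its 95% intervals, made in the same way, were 22.2 to 29.7 CPM and 19.2 to 27.1 CPM, so this level was the least precise. Reads of exactly either arm of Mir9-1 match several places and are outside these counts. Its level, rank and fold below Mir497 thus cover the remaining reads only.

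**Figure D2:**
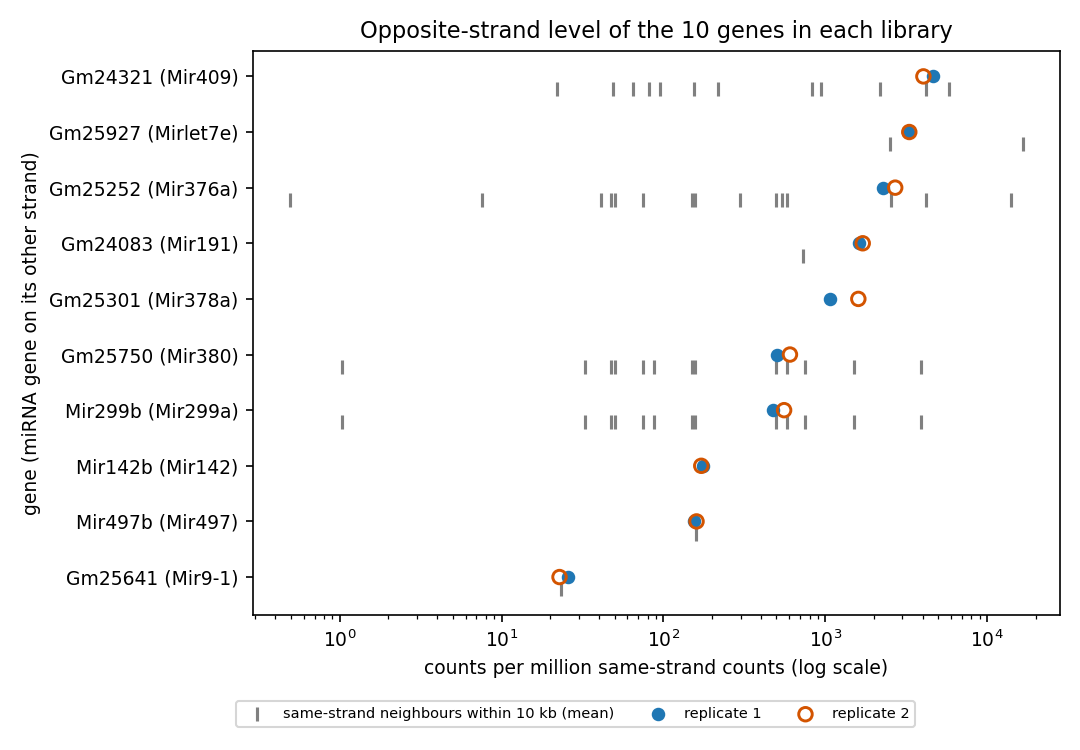
Opposite-strand level in CPM (x axis, log scale) of the 10 genes (y axis, with the known miRNA on the other strand in brackets), as filled points for replicate 1 and open points for replicate 2. Grey ticks show the mean level of other miRNA genes within 10 kb on the strand of the known miRNA, leaving out genes at 0. The points of Mir378a lie farthest apart, at 1070.5 and 1602 CPM.

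Genomic neighbours that are counted on their own strand gave a reference for these levels. Mirlet7e lies at chr17:17830352-17830444 in an intron of Spaca6, 95 bases after Mir99b and 368 bases before Mir125a, and the 3 miRNAs are known as one cluster. Mir99b stood at 17008 and 16381 CPM, far above Mirlet7e, with a log2 ratio of Mirlet7e to Mir99b of -2.35. Mir125a stood at 2883 and 2149 CPM, below Mirlet7e in both libraries, with a log2 ratio of 0.38. Mirlet7e was thus the middle of the 3 in both libraries.

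Mir191 (chr9:108568319-108568392, in an exon of the noncoding gene 4833445I07Rik) lies 385 bases before Mir425, its known cluster partner. Mir425 stood at 830 and 621 CPM, and the log2 ratio of Mir191 to Mir425 was 0.97 in replicate 1 and 1.46 in replicate 2 (mean 1.21 ± 0.35, SD, n = 2). Mir191 was higher in both libraries.

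Mir497 (chr11:70234717-70234800) lies 242 bases before Mir195a, and both belong to the miR-15/16 family that restrains the cell cycle. Mir195a stood at 152 and 166 CPM, beside 155 and 160.3 CPM for Mir497. The log2 ratio was 0.025 in replicate 1 and -0.052 in replicate 2, so neither was higher beyond the spread. Mir195a was also the gene next above Mir497 in mean CPM among all genes, with a ratio of 1.01. Mir9-1 (chr3:88215598-88215686, in an intron of the noncoding gene Gm3764) lies 341 bases after Mir3093, which stood at 24.1 and 22.7 CPM, nearly the level of Mir9-1, with a log2 ratio of 0.051 ± 0.057. Within 10 kb of Mir378a (chr18:61397835-61397900) and Mir142 (chr11:87756864-87756927, in an intron of the noncoding gene Mir142hg) no other miRNA gene of the tables was found on their strand.

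Of the 10 known miRNAs, 4 fall in the miR-379 to miR-410 cluster of the Dlk1-Dio3 region on chromosome 12: Mir299a (chr12:109710638-109710700), Mir380 (chr12:109711803-109711863), Mir376a (chr12:109723781-109723848) and Mir409, the last in an intron of the noncoding gene Mirg. With them, 37 genes of the cluster had a row, and the 4 held 16.7% of the summed cluster counts in replicate 1 and 16.4% in replicate 2 (16.5% ± 0.25, SD, n = 2). Mir409 was the third highest of the 37, after Mir487b (13973 ± 175 CPM) and Mir369 (5832 ± 294 CPM). Mir376a was in place 7, Mir380 in place 14 and Mir299a in place 16.

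Close neighbours in this cluster differed widely in counts. Mir412 begins 53 bases after the end of Mir409 and stood at 81.4 ± 4.51 CPM, against 4332 ± 408 for Mir409. Mir541, which ends 660 bases before Mir409, stood at 2174 ± 365 CPM. Mir409 was above 12 of its 13 neighbours within 10 kb, Mir376a above 13 of 16, and Mir380 and Mir299a each above 9 of the same 13. These 4 were chosen through the same opposite-strand counts and their neighbours were not. That choice favours levels above the neighbours and log2 ratios above 0. The neighbours also include Mir453 (near Mir409) and Mir654 (near Mir376a), both at 0 CPM. The log2 ratio to the median neighbour was 4.82 ± 0.46 for Mir409, 4.02 ± 0.31 for Mir376a, 1.96 ± 0.28 for Mir380 and 1.85 ± 0.26 for Mir299a (SD, n = 2). With only the 14 neighbours that had at least 10 counts in each library, the ratio of Mir376a was 3.42 ± 0.14.

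**Figure D3:**
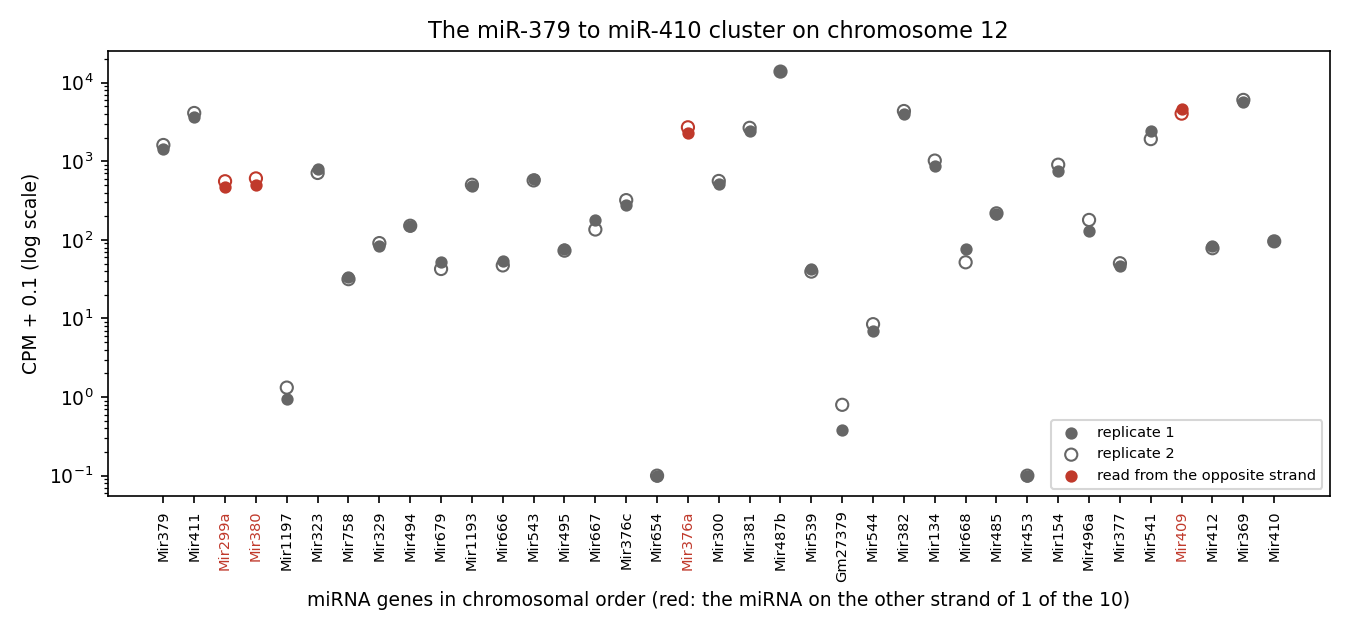
Level (CPM plus 0.1, y axis, log scale) of the 37 genes of the miR-379 to miR-410 cluster in chromosomal order (x axis), as filled points for replicate 1 and open points for replicate 2. Red marks the 4 miRNAs read from the opposite-strand column, which lie among the upper 16 of the cluster. These 4 were chosen through those counts.

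The share of a family's counts differed widely between the 10 miRNAs. Mir376a is known for adenosine-to-inosine editing of its arms in the brain. It held 89.2% and 89.4% of the summed counts of the 2 miR-376 genes analysed here, with Mir376c at 299 ± 30.5 CPM, and Mir376b was not analysed here. Mir378a held 99.6% and 99.8% of the summed counts of 4 miR-378 genes, the others standing at 1.94 CPM (Mir378d), 1.90 CPM (Mir378c) and 0.087 CPM (Mir378b). Among the genes analysed here, the same-strand column alone would have left out the main source of counts in both families. Both shares rest on counts that also served to choose the 10 genes.

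Mirlet7e was the fourth highest of 10 let-7 genes, with 5.12% and 4.64% of their summed counts. It stood below Mirlet7g (29455 ± 3732 CPM), Mirlet7i (25538 ± 1633) and Mirlet7b (4445 ± 50.2), and beside Mirlet7d (3190.0 ± 202 CPM). Mirlet7e shares its 5p seed with 10 detected genes, which summed to 62433 and 70456.5 CPM. Mir497 was seventh of 8 genes of the miR-15/16 family, at 1.48% and 1.29% of their counts, below Mir322 (7497 ± 1583 CPM) and Mir15a (1594 ± 0.91 CPM). Mir9-1 was the second of 3 miR-9 genes, with 6.42% and 5.21% of their counts, below Mir9-3 (394 ± 29.7 CPM) and above Mir9-2 (0.90 ± 0.54 CPM). The mature arms of these 3 miR-9 genes are identical. In all of these families, ranks and shares cover only reads that map to 1 locus. Arms held by several genes are thus undercounted beside arms of a single gene, and the size of this effect was not tested.

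Mir142 can be set beside the leukocyte marker list. It stood at 176 and 171 CPM, next to Mir223 at 156 and 124 CPM, Mir155 at 72.7 and 89.6 CPM, Mir146 (the gene of miR-146a) at 31.6 and 32.2 CPM and Mir150 at 27.1 and 23.4 CPM. Red cell miRNAs were lower, with Mir451a at 45.2 and 20.4 CPM. Mir342 was far above them at 4983 and 2954 CPM. The part of blood cells in the level of Mir142 was not tested.

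Between the libraries, 9 of the 10 genes differed by less than 0.5 log2 units (replicate 2 minus replicate 1, pseudocount 0.5, TMM scaling). Among all 316 genes whose counts reached 100 over both libraries, 9.49% exceeded that size in either direction, so 1 of 10 is close to the background. The exception was Mir378a, higher in replicate 2 by 0.53 (exact 95% counting interval 0.48 to 0.57), where 3.8% of genes were higher by more than 0.5. No gene of the 10 was lower by more than 0.5, a size passed by 5.7% of genes. Of the 10, 5 were above 0, against 49.1% of all 316, and their median was 0.0070 against -0.014. With 1 library on each side, these differences have no replicate check.

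In the Dlk1-Dio3 cluster Mir409 had a log2 difference of -0.25 (-0.27 to -0.22), while Mir376a was at 0.19 (0.16 to 0.22), Mir380 at 0.21 (0.14 to 0.28) and Mir299a at 0.18 (0.11 to 0.25). These intervals hold counting error only, and sizes like that of Mir409 were common, since 66.5% of all 316 genes had a smaller one. The median of 12 measured neighbours of Mir409 was 0.0021 (-0.64 to 0.40 over single genes), and that of 12 neighbours shared by Mir380 and Mir299a was -0.12 (-0.45 to 0.13). Mirlet7e was at -0.028 (-0.056 to -5.17e-05), above its neighbours Mir99b at -0.11 and Mir125a at -0.48. Mir191 was at 0.017 (-0.022 to 0.056) and its neighbour Mir425 at -0.47. Mir142 was at -0.089 (-0.21 to 0.033), Mir497 at -0.0028 (-0.13 to 0.13) and Mir9-1 at -0.22 (-0.56 to 0.11), all with intervals that include 0.

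**Figure D4:**
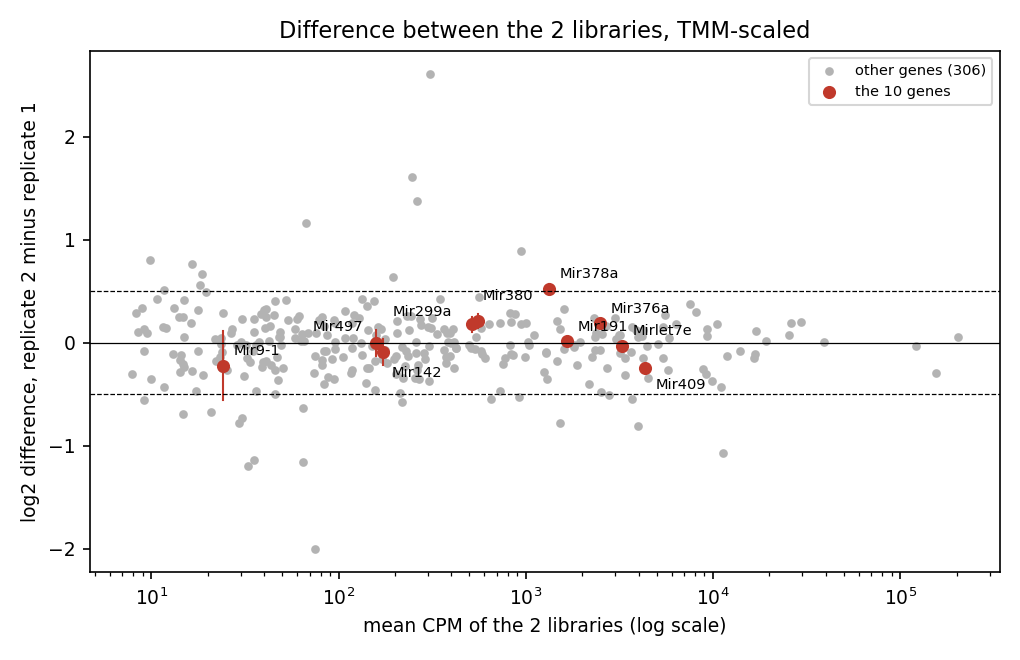
Log2 difference between replicate 2 and replicate 1 (y axis, TMM-scaled) against mean CPM (x axis, log scale) for the 316 genes with at least 100 counts summed, with the 10 genes in red, named by their known miRNA, and vertical lines for the exact 95% counting interval. The dashed lines mark 0.5 log2 units either way. Mir378a at 0.53 is the only red point outside them.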

How the data were processed

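The authors deposited 1 table of raw counts a library. Its assembly (mm10) and gene annotation (M4) are named in the notes deposited with it, whereas for aligner and counter the sources used here name none. A table has an unstranded, a same-strand and an opposite-strand column, an order inferred from the values. Lines for unmapped, multimapping, unassigned and ambiguous reads were left out of totals. Counts of the 10 genes came from the opposite-strand column and were divided by the same-strand total (CPM). Names, coordinates and overlaps came from GENCODE M21, matching 1894 of 1973 identifiers without their version, and sequences from RefSeq (GRCm38.p6) or M21 transcripts. RefSeq entries of chromosome 18, where Mir378a lies, were left out of all sequence comparisons. Whether RefSeq holds an entry for Mir378a or for Gm25301 was thus not examined. M4 itself was not used here. The marker Mir146a was matched to Mir146 through its RefSeq synonym.

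The members and lists were chosen with earlier results of these data known. Neighbours were miRNA genes within 10 kb on the reads' strand. Genes named were the 10, their partners, neighbours, genes sharing a seed, the next genes in mean CPM, and rows with at least 100 opposite-strand counts. Genes named beyond this rule (pair examples, Mir412 and further family and marker genes) were chosen after their values were seen. Replicate differences used TMM factors (edgeR 4.0.16, R 4.3.3) and exact binomial intervals (Python 3.11.15, scipy 1.17.1). The calculation was tested on simulated data. Folding used RNAfold 2.7.2. Alternatives were other scaling totals, DESeq2 1.42.0 size factors, pseudocounts, count minimums, a 50 kb window and each replicate left out. Reads carry no molecular identifiers in these tables, and the SD of 2 values is imprecise.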

Additional observations from a re-analysis of the deposited data

Results flagged for a closer look

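Outside the 10 genes, 3 rows held at least 100 opposite-strand counts, more than the 3 that a count of 0 allows. Gm24111, overlapped by Mirlet7f-1, had 423 (217 and 206) beside 1 same-strand count, the same pattern as the 10 genes at 30.9 and 35.9 CPM. Mir3074-1, overlapped by Mir24-1, had 190 opposite-strand counts (109 and 81) beside 1814 same-strand counts, so 9.48% of its counts lay on the strand of Mir24-1. Mir203, with no miRNA gene on its other strand in the annotation used, had 144 (75 and 69) beside 7056 same-strand counts, or 2.00%.

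The multimapping class, which enters no gene, held 3921182 reads in replicate 1 and 3310889 in replicate 2.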

How the results depend on the processing

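Counting only genes with at least 10 opposite-strand counts, the 10 genes held 99.53% of these counts in place of 99.47%. Without Mir10a in the total, their summed level was 1.83% in place of 1.45%, as the total is smaller, and 9 of the 10 single levels rose by more than the SD of the replicates. The count of 1 gene over 0.5 log2 units was the same under all 6 alternatives. Directions that changed were near 0: Mirlet7e with total counts was at 0.027, Mir497b was at 0.024 with DESeq2 size factors and at 0.052 with total counts, and the ratio of Mir497 to Mir195a ranged from -0.052 to 0.025 with 1 replicate left out. Each level with 1 replicate left out is that of the other library. The 10 members' shares of 99.45% and 99.49% and summed levels of 1.42% and 1.49% bound those settings. No paired analysis was possible because there is 1 group.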
